A study of Mus musculus with 33 samples.

Results

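The middle VH families are the variable gene segments of the mouse immunoglobulin heavy-chain (Igh) locus that belong to families 3, 4 and 6 to 16, here all listed segments whose family number is not 1, 2 or 5. They were chosen by name alone from the 183 VH genes that the study lists with mm9 coordinates. This gave 59 genes among the 230 Igh gene names in the processed data, and 5 further names of these families carry no listed coordinates and are not counted among them. The deposited data write each gene as IGHV followed by its number, which is shortened to VH here. For each gene the data give a recombination frequency in percent. The study describes its Igh frequencies as shares of all VDJH and DJH rearrangements, but the denominator of the deposited values themselves is not given in the sources used here, and their total includes the reads of the B1-8hi allele.

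The measurements were made by VDJ-seq, which captures JH-containing fragments of genomic DNA and counts the VH gene joined to them. The cells were immature B cells sorted ex vivo from bone marrow as IgMa-positive, from C57BL/6 mice of the genotype Igh(B1.8hi/+) that were 4 to 5 weeks old, with 8 libraries and no other genotype for the same locus. In these mice one Igh allele, of 129 origin, carries the pre-assembled B1-8hi heavy-chain gene, which uses VH1-72, and the other allele is wild-type and of C57BL/6 origin. The comparison with chromatin used 1 library of H3K27ac ChIP-seq, a mark of active regulatory chromatin, from pro-B cells labelled Rag1(Cre/Cre), also of the C57BL/6 strain, a genotype and cell stage other than those of the VDJ-seq libraries.

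Antibody heavy chains are assembled in developing B cells when the RAG recombinase joins a DH to a JH segment and then a VH gene to the DJH segment. RAG recognises a recombination signal sequence beside each segment, which consists of a heptamer, a spacer and a nonamer, and the first bases of the heptamer, CAC, are needed for cleavage. The VH genes next to the DH segments are mostly of families VH5 and VH2, the large VH1 family lies at the far end, and the other families lie mainly between them, from where they reach the DJH segment only through long-range folding of the locus in pro-B cells.

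Along mm9 chromosome 12 the 59 genes fell into 3 sections. VH6-1 lay alone among the proximal VH5 and VH2 genes, 30.5 kb from VH5-1, the listed gene nearest to the DH segments. A nearly unbroken block of 31 genes reached from VH7-1 at 323 kb to VH8-1 at 760 kb, with only 1 listed gene of another family inside it. The last 27 genes were scattered among VH1 genes, with 13 between VH13-2 at 785 kb and VH15-2 at 992 kb, and 14 beyond VH15-2, all of the VH8 family, the farthest being VH8-16 at 2285 kb. In the mouse annotation of the same build, 38 of the 59 genes overlapped an annotated gene, all of these on the minus strand, 36 overlapped a gene of the type IG_V_gene and 15 overlapped one of the same name. VH13-2 overlapped a gene annotated as a pseudogene.

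The signal sequences are shown first because the counts by heptamer further on refer to them. Each line runs 5′ to 3′ on the minus strand and holds the last 12 bases before the heptamer, then the heptamer, the spacer of 22 or 23 bases and the nonamer. Capitals mark the heptamer and the nonamer, and a line without capitals has no CAC in the window searched for the heptamer's start. The first set holds VH5-2 as the reference, a gene of the proximal VH5 family, and the 5 middle genes with the highest mean frequency.
VH5-2: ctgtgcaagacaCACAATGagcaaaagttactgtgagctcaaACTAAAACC
VH3-6: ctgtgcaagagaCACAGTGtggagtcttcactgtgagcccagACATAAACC
VH9-3: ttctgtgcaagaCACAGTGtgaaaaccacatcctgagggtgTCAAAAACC
VH8-8: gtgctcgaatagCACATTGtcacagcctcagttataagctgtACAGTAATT
VH13-2: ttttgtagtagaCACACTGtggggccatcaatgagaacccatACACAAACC
VH10-1: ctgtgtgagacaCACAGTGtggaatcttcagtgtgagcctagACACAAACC
These lie at chr12:114816676-114816726, chr12:115526324-115526374, chr12:115378865-115378914, chr12:116532234-116532284, chr12:115595933-115595983 and chr12:115717177-115717227.

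The second set holds genes that were listed at 0 in every library and have no CAC in the window searched for the heptamer. VH6-1 is shown as the only middle gene among the proximal genes, VH10-2 as a relative of the used VH10-1, and VH8-1 as the last gene of the block.
VH6-1: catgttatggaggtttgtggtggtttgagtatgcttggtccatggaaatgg
VH10-2: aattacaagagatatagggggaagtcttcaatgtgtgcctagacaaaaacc
VH8-1: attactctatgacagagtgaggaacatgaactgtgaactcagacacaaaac
These lie at chr12:114841632-114841682, chr12:115734175-115734225 and chr12:115570968-115571018. VH10-2 has the complete nonamer consensus, 9 of 9 bases, without a CAC heptamer, whereas its relative VH10-1 has the complete heptamer and 8 of 9 nonamer bases.

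The third set holds genes that were also listed at 0 in every library but have a CAC heptamer. It shows the complete heptamer of VH16-1, VH6-7 and VH7-2 and the altered heptamer of VH8-6.
VH16-1: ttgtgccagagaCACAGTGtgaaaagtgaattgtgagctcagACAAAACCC
VH6-7: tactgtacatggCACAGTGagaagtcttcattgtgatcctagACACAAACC
VH7-2: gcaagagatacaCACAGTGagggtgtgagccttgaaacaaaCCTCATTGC
VH8-6: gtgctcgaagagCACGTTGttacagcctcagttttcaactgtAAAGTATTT
These lie at chr12:115307000-115307050, chr12:115693798-115693848, chr12:115150198-115150247 and chr12:116403949-116403999. At the bases marked as the nonamer, VH16-1 and VH6-7 match 8 of 9, VH7-2 matches 3 and VH8-6 matches 3.

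Summed over the 59 genes, the recombination frequency was 0.211% ± 0.0277 (SD, n = 8) on the deposited scale and 0.341% ± 0.0463 (SD, n = 8) as a share of all 230 names. On the deposited scale it ranged from 0.154% in library 4 to 0.241% in library 1, with a median of 0.218%. For scale, VH5-2 alone, better known as VH81X and the most used proximal gene, reached 0.847% ± 0.159 (SD, n = 8), and VH5-6, the farthest gene of the proximal section compared here, reached 0.0918% ± 0.0217 (SD, n = 8). The scale matters for these levels: as a share of the values of all 230 names, VH5-2 made up 1.37% ± 0.265 (SD, n = 8), and as a share of the listed VH genes without VH1-72 and the similar VH1-53 it made up 37.5% ± 3.14 (SD, n = 8). The deposited values of a library summed to between 61.2% and 62.7%, of which VH1-72, the VH gene of the B1-8hi allele, took between 52.2% and 53.9%, the only check of the genotype label that these values allow. As a share of the listed VH genes without VH1-72 and VH1-53, the middle families made up 9.42% ± 1.07 (SD, n = 8), between 7.50% and 11.2%. On that scale the 10 genes up to VH5-6 made up 73.6% ± 2.32 (SD, n = 8).

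Levels of single middle genes were low and close to the resolution of a library. Of the 472 values (59 genes in 8 libraries), 259 (54.9%) were listed at 0 and 213 were above 0. The smallest value above 0 in a library lay between 0.000751% and 0.00212%, and the middle genes took only 7 to 12 distinct values above 0 in a library. That smallest value need not stand for 1 joint. In library 5 it was 0.000751%, whereas VH14-1, above 0 in that library only, was at 0.00225%. The values used here are percentages and the number of sequenced joints is not given with them. The value of 1 joint is therefore not known and no confidence interval was derived. A gene listed at 0 may still recombine at a rate too low to be seen in these libraries. Between 23 and 31 middle genes were above 0 in any single library.

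Over all libraries, 39 of the 59 genes (66.1%) were above 0 in at least 1 library, and 14 (23.7%) were above 0 in all 8. Among all 183 listed VH genes, 65.0% were above 0 in at least 1 library and 23.0% in all 8. The middle families were therefore detected about as often as listed VH genes in general. Of the remaining genes, 17 were above 0 in 3 to 7 libraries, 8 in 1 or 2 libraries and 20 in none. Leaving out any 1 library left between 36 and 39 genes above 0. The order of the 59 genes was partly shared between libraries, with a Spearman's rho between 0.57 and 0.83 over the 28 pairs of libraries and a median of 0.70. This correlation is across genes, which are not independent replicates, and every pair shares the genes at 0.

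**Figure D1:**
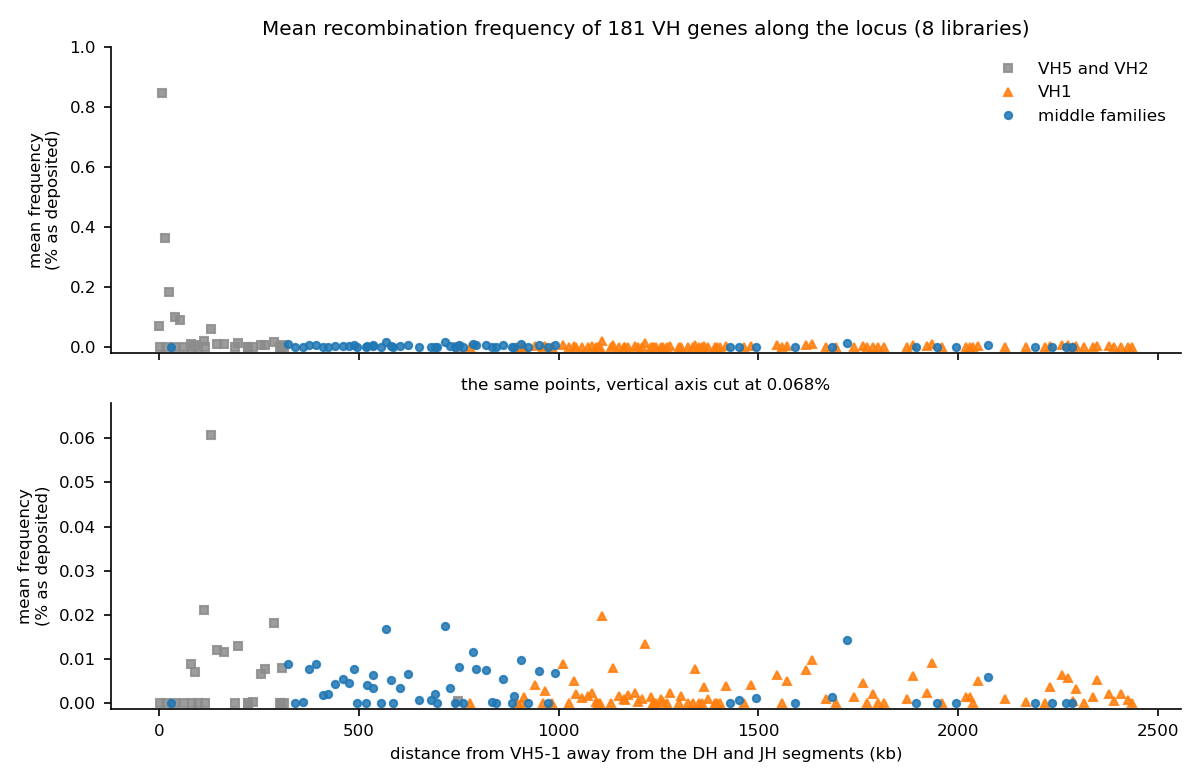
Mean recombination frequency of VH genes (vertical axes, percent as deposited, 8 libraries) against distance from VH5-1 in kb, with 1 point per gene and without VH1-72 and VH1-53. The lower panel leaves out genes above its axis. Genes of the middle families (circles) lie at or below 0.0175%, and VH5-2 (square at top left of the upper panel) at 0.847%.

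The plot of frequency against distance showed no steady fall across the section held by the middle families. Over all 59 genes, Spearman's rho between distance and mean frequency was -0.23, and over the 39 genes above 0 it was -0.14. Inside the block from VH7-1 to VH8-1 it was -0.013 over the 23 genes above 0. These values are descriptions across genes of the same libraries, and neighbouring genes often belong to the same family. The highest value of any middle gene in any library, 0.0307% for VH9-3 in library 8, was below the lowest value of the 6 used genes up to VH5-6, 0.0548%, so the levels of both sets did not overlap.

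VH3-6 had the highest mean, 0.0175% ± 0.00902 (SD, n = 8), and lies toward the far end of the block at 715 kb. Its values ran from 0.00286% in library 4 to 0.0301% in library 6, with a median of 0.0200%. VH9-3, the next gene in order, had a mean of 0.0169% ± 0.00846 (SD, n = 8), a lowest value of 0.00571%, a median of 0.0151% and a highest value of 0.0307%. The ranges of both genes overlapped almost completely, so their order is not resolved.

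VH8-8 came next with a mean of 0.0143% ± 0.00700 (SD, n = 8), a median of 0.0131% and a range from 0.00286% to 0.0231%. It lies 1721 kb from VH5-1, far into the VH1 genes, and is the only middle gene beyond VH15-2 that was above 0 in all 8 libraries. VH13-2 followed with a mean of 0.0116% ± 0.00344 (SD, n = 8), a median of 0.0121% and a range from 0.00540% to 0.0154%. Relative to its mean it varied least among the 5 highest genes. VH10-1 had a mean of 0.00987% ± 0.00516 (SD, n = 8), a median of 0.00829% and a range from 0.00270% to 0.0203%.

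The 5 highest genes made up 33.2% of the summed mean of the middle families, and the 20 highest made up 83.1%. The other 15 of these 20 were, in falling order, VH7-1, VH3-1, VH3-8, VH12-3, VH14-3, VH4-1, VH6-3, VH10-3, VH15-2, VH3-3, VH9-2, VH8-12, VH6-6, VH3-2 and VH7-3. Their means fell from 0.00884% for VH7-1 to 0.00533% for VH7-3. Of these 15 genes, 9 were above 0 in all 8 libraries, and the other 6 (VH12-3, VH4-1, VH8-12, VH6-6, VH3-2 and VH7-3) were at 0 in 1 or 2 libraries. All 19 pairs of neighbours in this order had overlapping ranges, so no gene was separated from the next by more than the spread between libraries.

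VH7-1 is the first gene of the block and the middle gene nearest to the DH segments apart from VH6-1. It was above 0 in all libraries, from 0.00385% to 0.0188% with a median of 0.00668%. VH12-3 and VH11-2 belong to families known from the antibodies of B-1 cells against phosphatidylcholine. VH12-3 had a mean of 0.00780% ± 0.00473 (SD, n = 8) and was at 0 in library 3, and VH11-2, outside the 20 highest and named for this background, had a mean of 0.00447% ± 0.00366 (SD, n = 8). Another VH gene, VH11-1, has 98.6% identity to VH11-2, and how reads fitting both were assigned is not given in the sources used here.

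**Figure D2:**
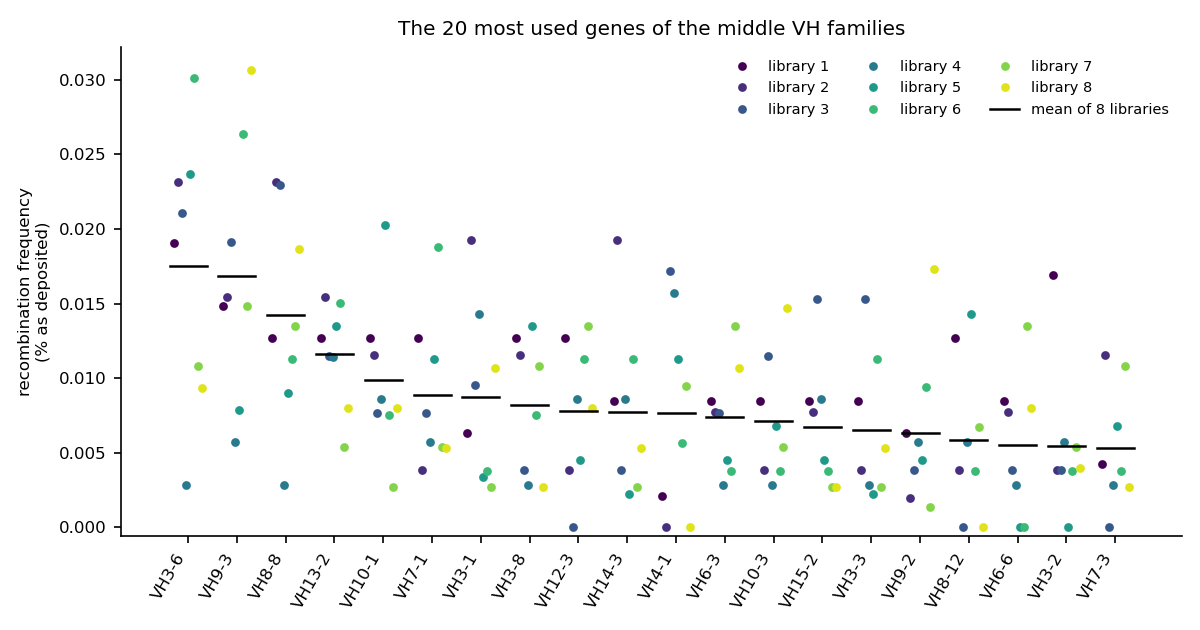
Recombination frequency (vertical axis, percent as deposited) of the 20 middle genes with the highest means, with 1 point per library and a bar at the mean of 8 libraries. The ranges of neighbouring genes overlap throughout, with the highest value at 0.0307% for VH9-3.

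By family, VH3 contributed most on average, with 0.0490% ± 0.0135 (SD, n = 8) over 8 genes, between 0.0314% and 0.0640% in a library. Of its genes 7 were above 0, 4 of them (VH3-1, VH3-3, VH3-6 and VH3-8) in all libraries, and only VH3-7 was at 0 throughout. The VH9 family, with 4 genes all above 0, followed with 0.0307% ± 0.0134 (SD, n = 8). In library 8 VH9 was above VH3, with 0.0533% against 0.0347%. Per gene the mean was 0.00767% for VH9 and 0.00612% for VH3. The VH8 family is the largest, with 16 genes, but summed to only 0.0250% ± 0.00759 (SD, n = 8), and 8 of its genes were listed at 0 in every library. VH8-8 made up 57% of the mean sum of this family.

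The 4 genes of VH10 split evenly. VH10-1 and VH10-3 were above 0 in all libraries and VH10-2 and VH10-4 in none, and the family summed to 0.0170% ± 0.00655 (SD, n = 8). VH7 reached 0.0149% ± 0.00474 (SD, n = 8) with 3 of 4 genes above 0. VH14 reached 0.0133% ± 0.00388 (SD, n = 8) with 4 of 4. VH6 reached 0.0133% ± 0.00882 (SD, n = 8), all of it from VH6-3, VH6-4 and VH6-6, while its other 4 genes were at 0.

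The small families were used as well. VH4 summed to 0.0120% ± 0.00878 (SD, n = 8) over 2 genes and was at 0 in library 8, whereas VH13 reached 0.0116% ± 0.00344 (SD, n = 8) from VH13-2 alone. VH12 summed to 0.0112% ± 0.00438 (SD, n = 8) from VH12-1 and VH12-3. VH15 summed to 0.00671% ± 0.00427 (SD, n = 8), all from VH15-2, and VH11 to 0.00622% ± 0.00469 (SD, n = 8) from both of its genes. VH16, whose single gene is VH16-1, was the only family listed at 0 in every library.

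**Figure D3:**
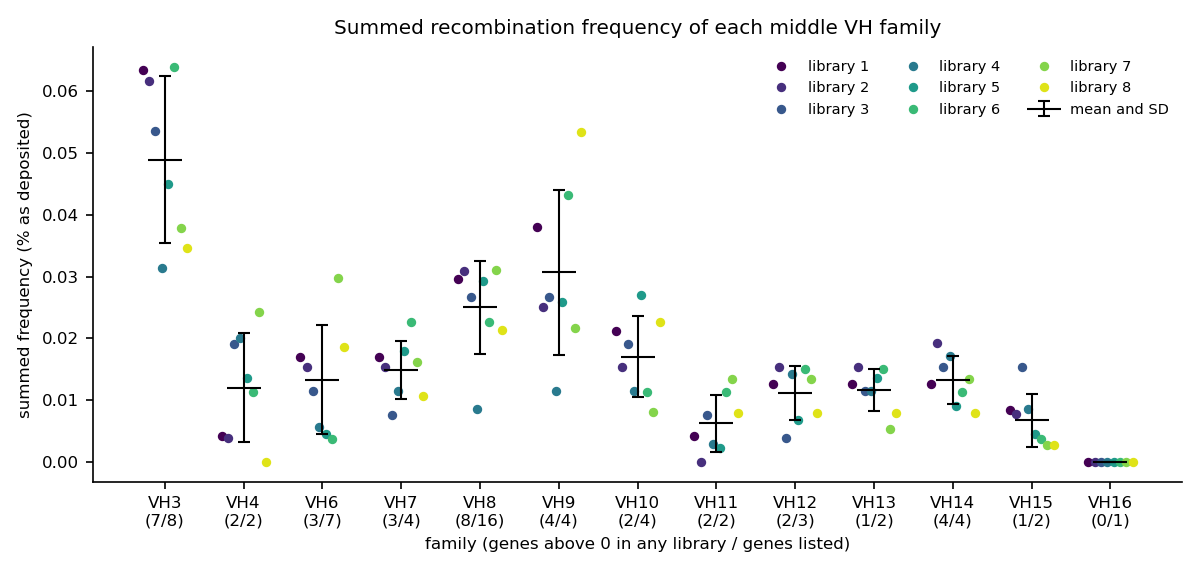
Summed recombination frequency of each middle family (vertical axis, percent as deposited), with 1 point per library and the mean with its SD over 8 libraries. Below each name stand the genes above 0 in any library and the genes listed. VH3 has the highest mean at 0.0490%, and VH16 lies at 0.

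The heptamers of used genes and of genes at 0 were compared. The search was for the consensus heptamer CACAGTG, starting from 3 bases before to 8 bases after the listed end of each gene, on both strands of that window. The complete heptamer was found on the gene's own strand in 28 of the 59 genes, against 55.2% of all 183 listed VH genes, and on the other strand in 1 of the 59, against 1.09%. A CAC start was present in 49 of the 59 genes, against 78.1% of all listed VH genes. The consensus nonamer ACAAAAACC was searched in the same way after a spacer of 22 to 24 bases, and all 9 bases were found there in 3.28% of the listed genes and on the other strand in 0 of 183. A match describes the letters and does not show that a site works.

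Of the 10 genes without CAC, 1 was above 0, VH8-13, in 1 library and at 0.000751%, the smallest value of that library and the same as that of VH8-11. Among all 183 listed VH genes, 11 of the 40 without CAC in the window (27.5%) were above 0, against 108 of the 143 with CAC (75.5%). Of these 11, VH1-53, VH1-55 and VH1-64 were above 0 in all 8 libraries, so a missing CAC by this search went with less use but did not mark every such gene as unused. The listed spans of VH1-53, VH1-55 and VH1-64 are each 391 bases long, against 294 for VH1-72. The window follows the listed end, so a signal farther inside a long span would be missed. Whether this applies here was not tested. VH1-53 is the gene left out elsewhere for its similarity to VH1-72. Of the 5 genes whose CAC heptamer matched 5 of 7 bases, none was above 0, against 2 of the 13 listed genes with at most 5 matches (15.4%). In VH8-10 and VH8-14 the bases taken as the heptamer were CACAGCC, which in VH8-8 lie in the spacer. The search may therefore have misplaced the heptamer in both. Of the 16 genes that matched 6 of 7 bases, all 16 were above 0 in at least 1 library and 3 (VH8-8, VH13-2 and VH3-3) in all 8, against 25 of all 29 such listed genes (86.2%) and 9 in all 8. Of the 28 genes with the complete heptamer, 22 were above 0 in at least 1 library and 11 in all 8, against 81 of all 101 such listed genes (80.2%) and 30 in all 8. The median of the gene means was 0.00155% with 6 matches and 0.00538% with the complete heptamer. These counts are a description across genes that share family and sequence, and no test was made.

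The genes at 0 despite a complete heptamer were VH7-2, VH16-1, VH12-2, VH13-1, VH6-5 and VH6-7. The nonamer of VH7-2 matched 3 of 9 bases, and those of the other 5 matched between 6 and 8. An open reading frame over the 285 bases before the signal was found in 44 of the 59 genes, against 66.1% of all listed VH genes, and 36 of these 44 were above 0 compared with 3 of the 15 without one. Over all listed VH genes these counts were 106 of 121 (87.6%) with an open frame and 13 of 62 (21.0%) without one, so the middle genes were near the shares of listed genes in general. VH12-2 had no open frame, whereas VH16-1, VH13-1, VH6-5 and VH6-7 had an open frame, a complete heptamer and at least 6 nonamer matches and were still listed at 0. VH3-2 and VH4-2 were above 0 in 7 libraries each although no open frame was found before their signal.

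The VH8 family had few complete signals. Of its 11 genes with CAC by this search, VH8-10 and VH8-14 included, all matched the nonamer in under 6 of 9 bases, and only VH8-2 had the complete heptamer. In 6 genes, among them VH8-8, the heptamer was CACATTG, and all 6 were above 0 in at least 1 library. In VH8-6 and VH8-9 it was CACGTTG and both were at 0.

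In 3 pairs of genes with a CAC heptamer the whole stretch shown above for single genes, from 12 bases before the heptamer to the end of the nonamer, was the same. VH8-8 and VH8-11 share all 51 bases. VH8-8 was above 0 in all libraries with a mean of 0.0143%, and VH8-11 in 1 library with a mean of 9.39e-05%. The only value of VH8-11 above 0, 0.000751% in library 5, is the smallest of that library and the same as that of VH8-13, and how reads fitting several VH genes were assigned is not given in the sources used here. VH14-3 and VH14-2 share all 50 bases, with means of 0.00771% ± 0.00565 and 0.00196% ± 0.00227 (SD, n = 8) and 8 and 4 libraries above 0. VH3-1 and VH3-2 share all 51 bases, with means of 0.00875% ± 0.00588 and 0.00544% ± 0.00495 (SD, n = 8) and 8 and 7 libraries above 0. The ranges of VH14-2 and VH14-3 overlapped, as did those of VH3-1 and VH3-2. Those of VH8-8 and VH8-11 did not, from 0.00286% to 0.0231% against 0% to 0.000751%. These pairs were picked after their values were seen, and the genes of each pair are between 94.2% and 96.6% identical to each other, apart from VH14-2 and VH14-3, whose closest listed relative is VH14-1 in both cases. VH8-15 and VH8-16, without CAC in the window, also share the 51 bases around their listed ends, and both were at 0 in every library.

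**Figure D4:**
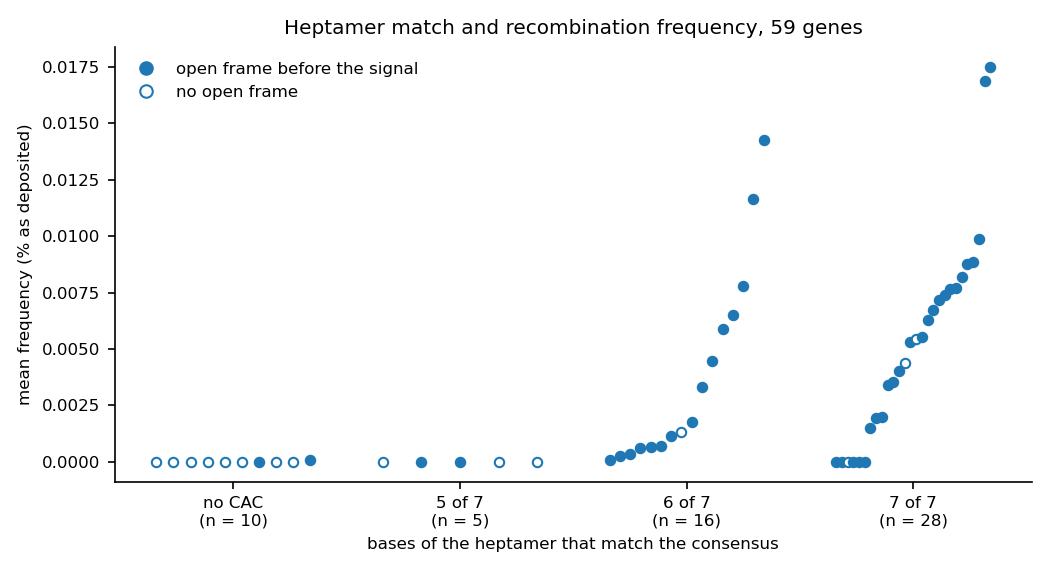
Mean recombination frequency (vertical axis, percent as deposited, 8 libraries) of the 59 middle genes, grouped by how many bases of the heptamer match the consensus, with genes without CAC at the left. Filled points have an open frame before the signal. The 15 genes at the left, without CAC or with 5 matches, lie at or next to 0, and the highest point is VH3-6 at 0.0175%.

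Per gene, the middle families were used more than VH1 genes and less than the VH5 and VH2 genes beyond VH5-6. The tests below measure the spread between libraries for fixed lists of genes, and not the spread between genes of a family. The mean over the 59 genes, those at 0 included, was 0.00357% ± 0.000470 (SD, n = 8). The 90 VH1 genes other than VH1-72 and VH1-53 had a mean of 0.00225% ± 0.000275 (SD, n = 8). The middle families were higher in 8 of 8 libraries, by 0.00133% ± 0.000453 (SD, n = 8; two-sided exact sign-flip permutation test over libraries, p = 0.00781, adjusted p = 0.00781 over 4 comparisons), which is the smallest p that 8 libraries allow. VH1-72 and VH1-53 were left out because the B1-8hi allele carries VH1-72 and VH1-53 is similar to it, and with both included the direction reversed to -0.609%.

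The 23 VH5 and VH2 genes beyond VH5-6 had a mean of 0.00763% ± 0.000787 (SD, n = 8). The middle families were lower in 8 of 8 libraries (difference -0.00406% ± 0.000745, SD, n = 8; two-sided exact sign-flip permutation test, adjusted p = 0.00781). Among genes annotated as IG_V_gene only, 36 middle and 14 VH5 and VH2 genes, the difference was -0.00736% ± 0.00131 (SD, n = 8; exact sign-flip permutation test, adjusted p = 0.0104 over 4 comparisons and 0.0117 without that of VH6-1). The mean of all these VH5 and VH2 genes holds VH5-12 at 0.0607%, a level that no middle gene reached. Without VH5-12 the other 22 genes had a mean of 0.00522% ± 0.000838 (SD, n = 8), and the difference shrank to -0.00164% ± 0.000698 (SD, n = 8; exact sign-flip permutation test, adjusted p = 0.00781). With VH5-12 included, the ranges over libraries did not overlap between the middle families and the VH5 and VH2 genes, from 0.00261% to 0.00409% against 0.00613% to 0.00843%. Those of the middle families and VH1 genes overlapped slightly, with VH1 between 0.00186% and 0.00265%.

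Within the middle families, the 31 genes of the block from VH7-1 to VH8-1 had a mean of 0.00418% ± 0.000656 (SD, n = 8), and the 27 genes among VH1 genes had a mean of 0.00302% ± 0.000537 (SD, n = 8). The block was higher in 8 of 8 libraries, by 0.00116% ± 0.000740 (SD, n = 8; two-sided exact sign-flip permutation test, adjusted p = 0.00781). Restricted to genes annotated as IG_V_gene, 22 in the block and 14 among VH1 genes, the difference was 0.000702% ± 0.00118 (SD, n = 8; exact sign-flip permutation test, adjusted p = 0.0859). Restricted to genes with a CAC heptamer, 28 and 21, it was 0.000749% ± 0.000869 (SD, n = 8; exact sign-flip permutation test, adjusted p = 0.00781). Library 6 stood apart with a difference of 0.00289%, and without it the mean difference was 0.000911%. The order was the other way among genes above 0 in at least 1 library, where the median of the gene means was 0.00447% in the block (23 genes) and 0.00571% among VH1 genes (16 genes).

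The 27 genes among VH1 genes were not alike. The 13 from VH13-2 to VH15-2 had a mean of 0.00446% ± 0.000612 (SD, n = 8), close to that of the block, with 9 of 13 above 0 and 5 above 0 in all libraries. The 14 VH8 genes beyond VH15-2 had a mean of 0.00168% ± 0.000540 (SD, n = 8), with 7 of 14 above 0. This split was made after the values were seen, and family and distance cannot be told apart in it, since all the distant genes are of VH8.

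**Figure D5:**
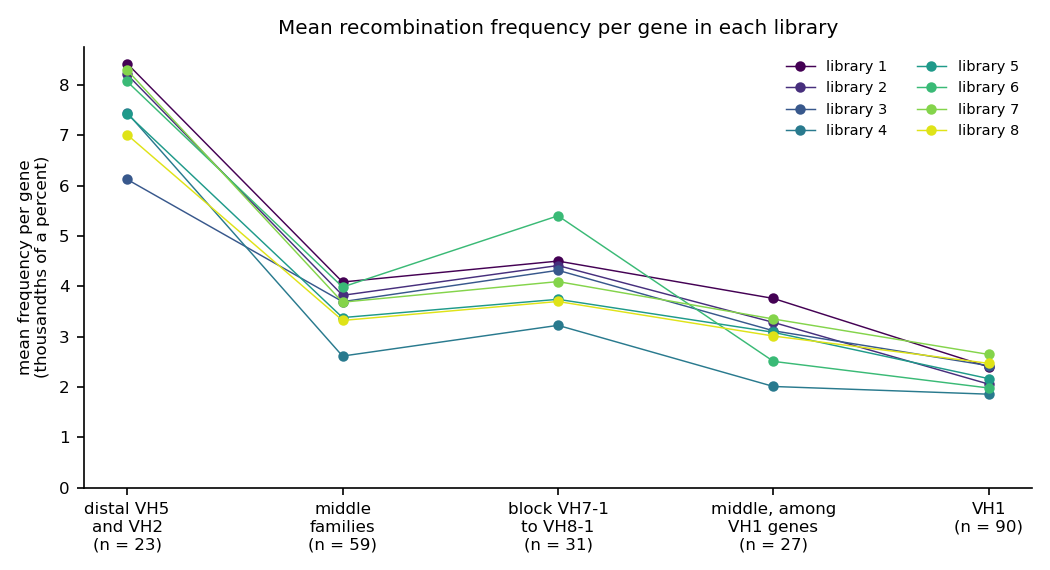
Mean recombination frequency per gene (vertical axis, thousandths of a percent as deposited) for 5 sets of VH genes, with 1 line per library. The middle families comprise the block, the genes among VH1 genes and VH6-1, so these points are not independent. Every line falls from the distal VH5 and VH2 genes to the middle families and is lowest at VH1.

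VH6-1 is the single middle gene in the proximal section up to VH5-6, where 6 of 10 genes were above 0 in all libraries. It was listed at 0 in all 8 libraries. VH6-1 counts as a middle gene by its name alone. By sequence its closest listed relative was VH5-10, with 92.0% identity, which was also at 0 in every library. The other 9 genes up to VH5-6 had a mean of 0.184% ± 0.0257 (SD, n = 8). A gene at 0 is below such a mean in every library by construction, so no test is given. It was not alone in this, since 4 of the 10 genes up to VH5-6, VH6-1 included, were at 0 in every library. No CAC heptamer was found at its end, as its printed sequence shows, and no open frame before it.

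H3K27ac peaks were compared because the mark labels active chromatin in pro-B cells, the stage at which VH genes recombine first in wild-type development. For the wild-type allele of the Igh(B1.8hi/+) mice, the paper proposes recombination in pre-B cells, a later stage. Of the 17935 peaks of this library, 15 lay across the span of the listed VH genes. None lay between VH5-1 and VH7-1, a stretch of 323 kb, 4 lay within the 437 kb of the block and 11 in the 1677 kb beyond it. Of the 59 middle genes, 7 (11.9%) had a peak within 5000 bases, against 6.56% of all listed VH genes.

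These 7 genes were VH14-2, VH14-4, VH10-2, VH10-4, VH8-4, VH8-6 and VH8-13. VH14-2, VH8-4, VH8-6 and VH8-13 overlapped a peak directly, and that over VH14-2 lies at chr12:115232460-115233186. Of the 7, 4 were above 0 in at least 1 library and none in all libraries, and their highest mean was 0.00332% for VH14-4. Outside the middle families, VH1-11, VH1-12, VH1-46, VH1-58 and VH1-74 also had a peak within 5000 bases. None of these VH1 genes was above 0 in all libraries either, and among them only VH1-46 was at 0 throughout. VH10-2, VH10-4 and VH8-6 were listed at 0 in every library. Of the 52 middle genes without a peak within 5000 bases, 14 were above 0 in all libraries and 17 were at 0 throughout. The most used middle genes, VH3-6, VH9-3 and VH8-8, lay 13038, 39528 and 17567 bases from the nearest peak. With 1 library of another cell stage and no peak heights, this comparison is a description and carries no test.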

How the data were processed

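VDJ-seq libraries of the Igh locus (8, labelled as separate samples of immature B cells, Igh(B1.8hi/+)) were analysed. Where they did not come from separate mice, p-values measure technical spread. The authors sheared genomic DNA, ligated UMI adapters, extended JH primers, captured and sequenced the products and deposited a percent value per VH gene. The denominator of these values and the aligner for these libraries are not given in the sources used here. The H3K27ac peak list deposited by the authors has a score of 0 for every peak.

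Values were used as deposited, without a pseudocount or filter. Means over genes include those at 0. Differences between gene sets were tested over the 8 libraries by two-sided exact sign-flip permutation (256 patterns) with Benjamini-Hochberg adjustment over 4 comparisons at 0.05 (VH6-1, at 0 throughout, is among the 4 but its outcome is fixed, so no p is given for it), tested on simulated data. Signal sequences, peaks and annotation were read in mm9 (NCBIM37, GENCODE vM1). The annotation names few VH genes as listed. Genes with another VH gene at 97% or more identity over 90% of the length (blastn 2.17.0) were treated as near-identical, which applied to 10 of the 59 genes. Python 3.11.15, numpy 2.4.6, scipy 1.17.1 and matplotlib 3.10.9 were used. Genes named in the text are VH6-1, the up to 20 genes with the highest means and the references VH5-2 and VH5-6, and others are named where a count or sequence turns on them. The genes, sets and tests were chosen with earlier results of these data known. The closing section gives the alternatives: each library left out, other denominators, medians, a floor on low values, near-identical or unannotated genes left out and other peak windows. Igk libraries were not used here.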

Additional observations from a re-analysis of the deposited data

Results flagged for a closer look

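Among the 37 sums, differences and single genes examined for a library far from the others, 5 had 1 such library by Dixon's gap over range at the 95% level. Chance alone gives this in about 1 in 20 cases, and some of the 5 share genes. VH15-2, and with it the sum of its family, reached 0.0153% in library 3, and the next highest library had 0.00857%. VH3-2 reached 0.0169% in library 1, and the next highest was 0.00571%. The VH8 family fell to 0.00857% in library 4, and the next lowest was 0.0213%. The difference per gene between the block from VH7-1 to VH8-1 and the genes among VH1 genes was 0.00289% in library 6 against 0.00122% in the next highest library.

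Of the 5 names of these families without listed coordinates, 4 were above 0. VH9-3-1 had a mean of 0.00222% ± 0.00214 (SD, n = 8) and was above 0 in 5 libraries. VH9-2-1 had a mean of 0.00101% ± 0.00187 (SD, n = 8) and was above 0 in 2. VH10S3 (mean 0.000167%) and VH8S9 (mean 0.000169%) were each above 0 in 1 library. They enter no comparison here, since their position is not listed.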

How the results depend on the processing

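Leaving out the comparison of VH6-1, whose direction is fixed because it is listed at 0, 67 of 76 alternative values kept the direction and the side of the threshold, or stayed within the spread or within 1.5 times for sums and counts. With the median over libraries in place of the mean, the exact sign-flip permutation gave an adjusted p of 0.0625 in the other 3 comparisons, which is the smallest p that a median of 8 values can give in this test and so says nothing about stability, with differences of 0.00124% from VH1 genes, -0.00421% from the distal VH5 and VH2 genes, 0.000937% between the block and the genes among VH1 genes. The median difference of VH6-1 from its neighbours was -0.175%. The difference from VH1 genes reversed to -0.609% with VH1-72 and VH1-53 included. The block's difference was 0.000702% (adjusted p = 0.0859, exact sign-flip permutation) for IG_V_gene annotations only, an alternative added after seeing the data, and the cause was not tested. The difference from the distal VH5 and VH2 genes was -0.00164% without VH5-12 and -0.00736% for IG_V_gene annotations only, and the block's difference was 0.000749% for genes with a CAC heptamer, all added later. By construction the sum of 0.211% became 9.42% of the listed VH genes without VH1-72 and VH1-53 and 0.341% of the sum of all gene names, the latter also added later. Peaks overlapped 4 genes directly (6.78%, against 2.73% of all listed VH genes) and lay within 20000 bases of 22 (37.3%, against 23.5%). Leaving out single libraries changed no call, with sums between 0.207% and 0.219%. With values below 0.00212% set to 0, 37 genes were above 0, and the difference from VH1 genes was 0.00136%. With near-identical genes left out, the difference was 0.00181% from VH1 genes, -0.00357% from the distal VH5 and VH2 genes and 0.000827% for the block. No paired analysis was possible because the Igh data hold a single group, so there are no groups whose replicates could be paired. The tests above are on differences within a library. The precision is limited by the number of joints, which is not given with the percentages, and by values near the smallest that a library can show.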
